A study of Drosophila melanogaster with 20 samples.

Results

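The genes described are 10 Drosophila melanogaster genes of the mesoderm and muscle, chosen by symbol: the early regulators twi, bap and Mef2, and the sarcomere genes Mhc, Mlc2, Act57B, Act87E, up, bt and sls. All 10 had a row in every library, among 17263 annotated features that were not microRNAs, and all 10 passed the filter on low counts. The 20 small RNA libraries came from embryo cells that had been fixed in formaldehyde, stained for a neural marker and sorted by flow cytometry into a marker-positive and a marker-negative fraction. At 18-22 h after egg laying the groups were repo-positive and repo-negative cells and elav-positive and elav-negative cells. At 6-8 h they were repo-positive and repo-negative cells, elav-positive and elav-negative cells, and pros-positive and pros-negative cells. Each of these 10 groups held 2 libraries, which the labels call biological duplicates, and the labels name no strain, genotype or transgene. The labels describe repo-positive cells as enriched for glia, elav-positive cells as enriched for neurons and pros-positive cells as enriched for neuroblasts. None of the sorts selected muscle, so a negative fraction holds whatever the embryo contained without the marker.

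Reads in these libraries that fall on exons of muscle genes are short fragments in a size-selected preparation, and they stand for no measured mRNA level. Throughout, CPM are counts per 1000000 non-miRNA counts of a library, scaled by edgeR's TMM factors, and a CPM given with ± is the mean of 2 libraries with its standard deviation. A fold change is given on the log2 scale with its standard error. It passed the test at a Benjamini-Hochberg adjusted p under 0.05 in edgeR's quasi-likelihood test over 11726 features and all 20 libraries. Since these are mixed cells in bulk, a lower value may reflect fewer cells of a type or less RNA per cell, and these cannot be told apart.

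In the fly embryo the mesoderm is specified by the transcription factor Twist and is then subdivided. Its visceral part depends on the homeodomain factor Bagpipe, and differentiation of all muscle types depends on the MADS-box factor Mef2. Somatic muscle fibres form by fusion of myoblasts and later assemble sarcomeres, in which myosin thick filaments slide along actin thin filaments under the control of troponin and tropomyosin. Giant elastic proteins of the titin family tie the thick filaments to the Z disc.

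The early regulators were twi (FBgn0003900, 2R, 22985374 to 23048325, plus strand), bap (FBgn0004862, 3R, 21388880 to 21390449, plus strand) and Mef2 (FBgn0011656, 2R, 9913496 to 9958858, minus strand), with coordinates in build BDGP6 as the deposited exon rows give them. The myosin genes were Mhc (FBgn0264695, 2L, 16766566 to 16788766, plus strand), which encodes the muscle myosin heavy chain, and Mlc2 (FBgn0002773, 3R, 30171438 to 30174551, minus strand), the regulatory light chain. Act57B (FBgn0000044, 2R, 20944021 to 20946431, plus strand) and Act87E (FBgn0000046, 3R, 13425983 to 13428375, plus strand) encode muscle actins. The gene up (FBgn0004169, X, 13593474 to 13602578, minus strand) encodes troponin T. Projectin is the product of bt (FBgn0005666, chromosome 4, 724400 to 776474, plus strand), and Sallimus, a protein related to titin, that of sls (FBgn0086906, 3L, 2039681 to 2115611, minus strand). All counts were on exons of the gene's own strand. In the annotation, twi shared 291 exon bases of its strand with asRNA:CR42742, an antisense RNA gene, and Act57B shared 96 with a snoRNA gene, so reads there were counted for both. The other 8 shared no exon base on their strand with another feature.

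The libraries held 3994804 to 13402457 non-miRNA counts, of which 9.55 to 21.4% lay on protein-coding genes, 25.6 to 36.0% on rRNA and 8.27 to 30.5% on snoRNA. The 10 genes together took 992.1 to 19238.1 counts a library. Marker genes of the sorted type were higher in its sort: all 8 neuron markers were called higher in each elav sort, 4 of 6 glia markers in the repo sort at 18-22 h and 6 of 6 at 6-8 h, and 5 of 6 neuroblast markers in the pros sort. Neuron markers were also called higher in repo-positive cells at 6-8 h (4 of 8, median 1.75) and in pros-positive cells (6 of 8, median 2.52). Of all 11726 features tested, 1035 and 631 were called higher in the elav sorts at 18-22 h and 6-8 h. In the repo sorts these counts were 169 and 279, and in the pros sort 141. The second libraries of elav-positive and elav-negative cells at 6-8 h stood apart with 70156 and 199947 counts on miRNAs, against at least 828463 in each of the other 18, so results of that sort are also given without them. The file headers name another mapping directory for the pros libraries than for the others. Where pros libraries differ from the rest, that therefore cannot be told apart from a difference in processing.

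Sarcomere genes other than Act87E had higher group means at 18-22 h, and Mhc, Mlc2 and bt separated the stages library by library. Fragments of Mhc lay at 129.6 and 96.6 CPM in the libraries of repo-positive cells at 18-22 h, 302 and 207 CPM in repo-negative, 97.7 and 99.97 CPM in elav-positive and 283 and 199.9 CPM in elav-negative libraries. At 6-8 h they lay at 4.44 and 5.59 CPM for repo-positive, 8.29 and 13.7 CPM for repo-negative, 8.15 and 4.93 CPM for elav-positive and 9.50 and 28.0 CPM for elav-negative cells. Every 18-22 h library was above every 6-8 h library, as also for Mlc2 (at least 24.5 CPM late and at most 13.3 CPM early) and bt (at least 252 and at most 118 CPM). The libraries of the stages overlapped for up (late from 9.23 CPM, early to 12.1 CPM), Act57B (49.2 and 54.2 CPM) and sls (164 and 170.1 CPM). For 6 of the 10 genes (Mhc, Mlc2, Act57B, up, bt and sls), each of the 4 group means at 18-22 h lay above each of the 6 group means at 6-8 h. The share of all features that separated the stages in these ways, by library or by group mean, was not counted.

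In repo-negative cells Mhc was 23.0-fold higher at 18-22 h than at 6-8 h (log2 4.52 ± 0.46, adjusted p = 6.7e-06, edgeR). In repo-positive cells, the glia-enriched fraction, the log2 fold change was 4.48 ± 0.47 (adjusted p = 5.88e-05, edgeR). Elav-positive cells gave a log2 value of 3.92 ± 0.45 and elav-negative cells one of 3.66 ± 0.44. Fragments of Mhc rose in all 4 fractions that were sorted at both stages.

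The other filament genes differed in how far they rose. Projectin (bt) reached 772 ± 199.9 CPM in repo-negative cells at 18-22 h, against 48.2 ± 4.38 CPM at 6-8 h, and its log2 fold change was between 3.01 ± 0.44 in elav-positive and 4.00 ± 0.46 in repo-negative cells. Troponin T (up) was at 35.7 ± 0.428 CPM in late and 2.28 ± 1.11 CPM in early repo-negative cells, and rose by log2 values of 3.04 ± 0.49 (repo-positive) to 3.94 ± 0.49 (repo-negative). Mlc2, the light chain, rose by 2.51 ± 0.42 in elav-positive cells to 3.70 ± 0.44 in elav-negative cells. The values of sls were smaller, from 1.61 ± 0.39 in repo-positive to 2.92 ± 0.41 in repo-negative cells. Its calls had the highest adjusted p of these 5 genes in each fraction. In repo-positive cells the call was lost without repo-positive replicate 1 or replicate 2 of 6-8 h or replicate 1 of 18-22 h (adjusted p 0.075 to 0.233), in elav-positive cells without replicate 1 of either stage (0.0915 and 0.0849) and in elav-negative cells without replicate 1 of 6-8 h (0.0601). Scaling by total counts also ended its calls in repo-positive (0.139) and elav-positive cells (0.159), as did fitting only the libraries compared in elav-positive cells (0.0638).

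Act57B, an actin of larval muscle, rose in both negative fractions, by 2.31 ± 0.31 in repo-negative and 1.51 ± 0.30 in elav-negative cells (adjusted p = 7.69e-05 and 0.00245, edgeR). It lay at 148 and 173 CPM in late repo-negative libraries, against 31.8 and 33.0 CPM in early ones. In the positive fractions it did not pass in edgeR, with 1.04 ± 0.30 in repo-positive (adjusted p = 0.0529) and 0.81 ± 0.29 in elav-positive cells (adjusted p = 0.163), although both late libraries lay above both early ones in each, as for 24.1% and 25.2% of all features. DESeq2 called it in both (adjusted p = 0.00381 in repo-positive and 0.0476 in elav-positive cells), and in repo-positive cells edgeR did so with RLE factors (0.0361), on protein-coding genes only (0.0203) and without both second libraries of the elav sort at 6-8 h (0.0452).

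Act87E, which encodes another muscle actin, had no call between the stages. Its log2 fold change between the stages lay between -0.45 ± 0.31 and 0.20 ± 0.30 in the 4 fractions, with adjusted p of 0.507 to 0.861. Over the 20 libraries it ranged only from 21.5 to 57.0 CPM, and the 2 highest group means were those of repo-positive cells, 40.7 ± 0.831 CPM at 18-22 h and 48.6 ± 11.8 CPM at 6-8 h. The coding sequences of the fly actin genes are nearly identical, and a read that mapped to several places was shared among them, so the split of reads between Act87E, Act57B and the cytoplasmic actins is uncertain. Over the 10 group means, which share libraries and depth, log2(CPM + 1) of Act87E had a correlation of 0.24 with that of the cytoplasmic actin gene Act5C and of -0.19 with Mhc, while Act57B had -0.45 with Act5C and 0.82 with Mhc. Act5C itself was higher in positive cells at 6-8 h, at 327 ± 32.1 CPM in repo-positive cells, against 140.5 ± 29.3 CPM in repo-negative ones (1.22 ± 0.30) and at 264 ± 78.8 CPM in elav-positive and 111 ± 22.4 CPM in elav-negative cells (1.25 ± 0.31).

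**Figure D1:**
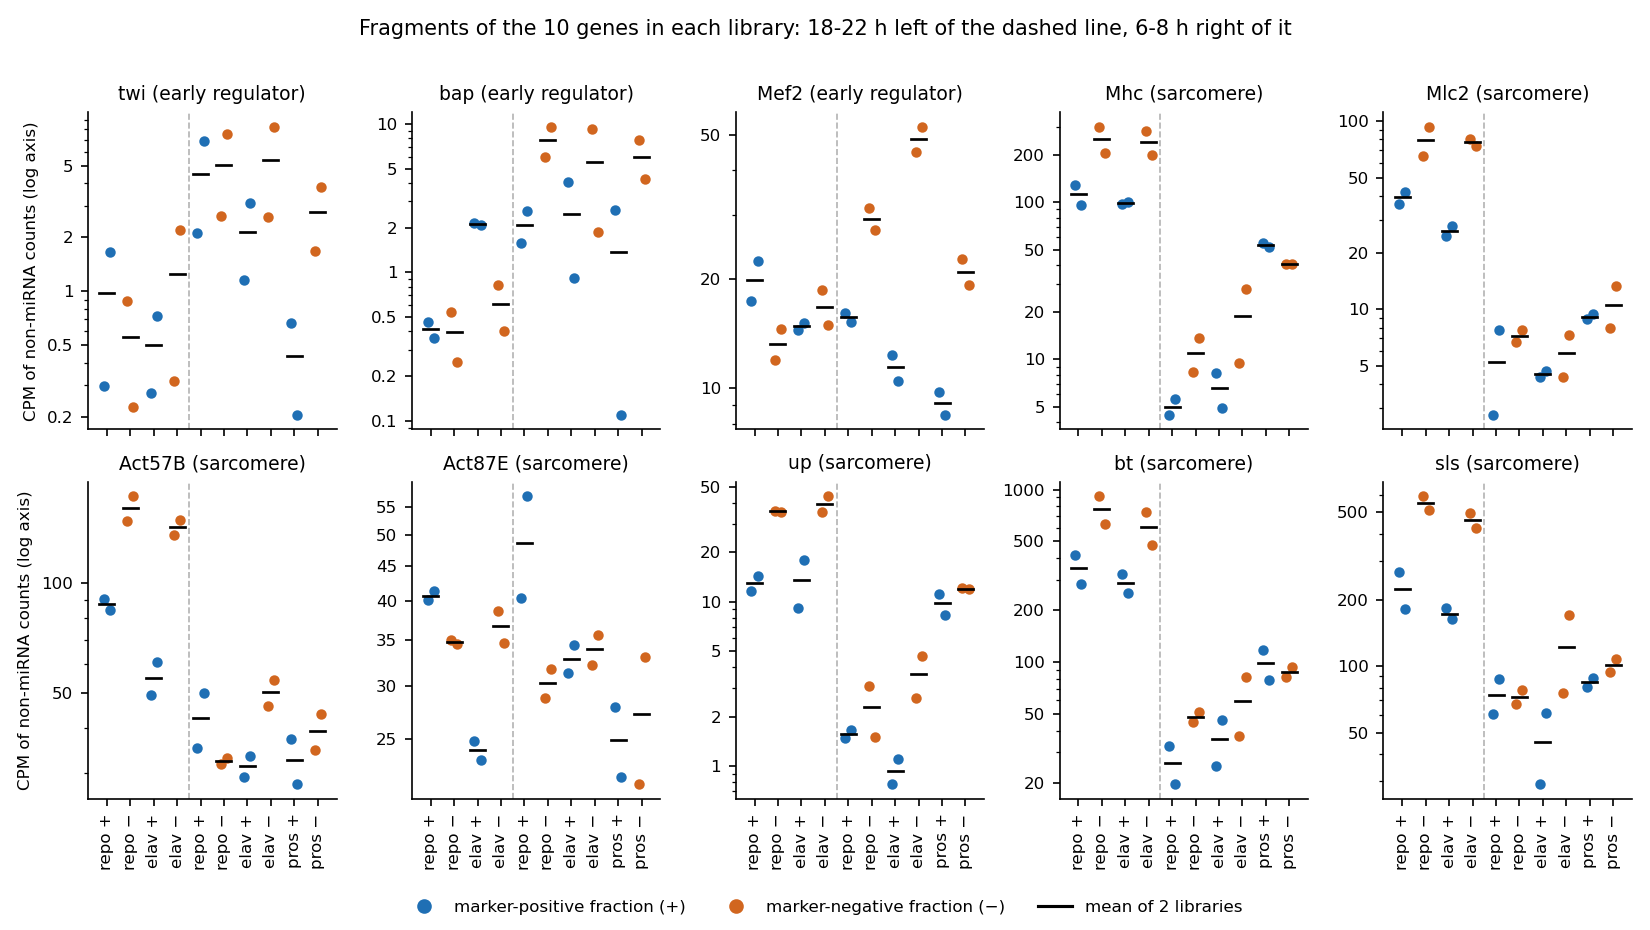
CPM of non-miRNA counts (log axis) of each of the 10 genes in each library, with 18-22 h groups left of the dashed line and 6-8 h groups right of it. Points are libraries, blue for marker-positive and orange for marker-negative fractions, and bars are means of 2; for Mhc every late library, from 96.6 CPM up, lies above every early one, up to 55.5 CPM, while Act87E stays between 21.5 and 57.0 CPM.

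Counted over the list, 6 of 7 sarcomere genes were called higher at 18-22 h in repo-negative and in elav-negative cells, beside 7.16% and 6.77% of all features tested. In repo-positive and elav-positive cells 5 of 7 were called higher, beside 1.85% and 1.83%. The 5 genes Mhc, Mlc2, up, bt and sls were called higher in all 4 fractions, as were 0.631% of all features (74 of 11726), a count that sls leaves under total counts. The median log2 fold change of the 7 genes was 3.45 in repo-negative, 3.34 in elav-negative, 2.90 in repo-positive and 2.51 in elav-positive cells. Over all features it was -0.05, 0.07, -0.07 and -0.01 in the same order. Without the second libraries of the elav sort at 6-8 h, 7 members were called in elav-negative and 5 in elav-positive cells, as with them.

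The early regulators went the other way in the negative fractions. Mef2 lay at 12.0 and 14.5 CPM in repo-negative libraries at 18-22 h, against 31.3 and 27.2 CPM at 6-8 h, and at 18.6 and 14.95 CPM in late elav-negative libraries, against 44.8 and 52.5 CPM in early ones. It fell by 1.14 ± 0.32 in repo-negative cells (adjusted p = 0.0246) and by 1.53 ± 0.32 in elav-negative cells (adjusted p = 0.00386, edgeR). In the positive fractions, where its early level was lower, the late values of Mef2 were slightly above the early ones, with 0.35 ± 0.32 in repo-positive and 0.37 ± 0.32 in elav-positive cells (adjusted p = 0.636 and 0.628), and scaling by total counts turned the elav-positive value to -0.12. The repo-negative call was lost when any single library of the comparison was left out (adjusted p 0.103 to 0.238), and the elav-negative call without elav-negative replicate 2 of 6-8 h (0.0528) or of 18-22 h (0.0769).

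Bagpipe was the other early regulator with a call. Its deposited counts were 4.93 and 2.47 in late repo-negative libraries, against 40.71 and 62.52 in early ones, or 0.539 and 0.249 CPM against 5.97 and 9.55 CPM. On these counts bap fell by 4.34 ± 1.19 (adjusted p = 0.0211, edgeR), a call that was lost when any single library was left out (adjusted p 0.0531 to 0.187). In elav-negative cells its value was -3.12 ± 1.14 (adjusted p = 0.0785) and in repo-positive cells -2.50 ± 1.20 (adjusted p = 0.28). Elav-positive cells differed in that bap lay at 2.16 and 2.09 CPM late, against 4.05 and 0.913 CPM early, so that the libraries overlapped.

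Fragments of twi were scarce, with 2.17 to 65.95 counts a library. They lay at 0.889 and 0.226 CPM in late repo-negative libraries, against 2.65 and 7.50 CPM in early ones, and at 0.317 and 2.19 CPM in late elav-negative libraries, against 2.59 and 8.27 CPM in early ones. All 4 stage differences of twi were below 0, from -3.21 ± 1.19 in repo-negative to -2.12 ± 1.19 in elav-positive cells, and none passed in edgeR (adjusted p 0.0901 to 0.391). In repo-negative cells it was called by DESeq2 (-3.15, adjusted p = 0.0339) and by edgeR fitted to the libraries of that comparison alone (-3.14, 0.0304). The 2 libraries of a group differed by 2.30- to 6.92-fold for twi and by 1.03- to 24.0-fold for bap, against at most 1.29-fold for Mef2.

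Among the 3 early regulators, 2 were called lower in repo-negative cells and 1 in elav-negative cells, beside 4.27% and 5.43% of all features. DESeq2 called 3 in repo-negative cells, with twi added, and 2 in elav-negative cells, with bap added (-3.08, adjusted p = 0.0347). None was called in repo-positive or elav-positive cells by edgeR or DESeq2, where 1 and 0 had an unadjusted p under 0.05 and 3.7% and 3.02% of all features were called. The summed fragments of the 3 genes were at 13.4 to 15.02 CPM in late and 39.9 to 44.3 CPM in early repo-negative libraries, while those of the 7 sarcomere genes were at 1684 to 2089.8 CPM in late and 191 to 217 CPM in early ones. Neither sum was scaled by exon length, so genes with many counts weigh most. In late repo-negative cells Mef2 had a mean of 13.3 CPM, in an early sum of 14.2 CPM. There bt had 772 and sls 550 CPM, in a sarcomere sum of 1887 CPM. The log2 ratio of the sarcomere sum to the early sum was 4.93 to 7.28 in the 8 late libraries and 1.87 to 5.03 in the 12 early ones. The highest early ratios were those of the pros-positive libraries, 4.70 and 5.03, and the other 10 early libraries lay at 3.68 or below.

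**Figure D2:**
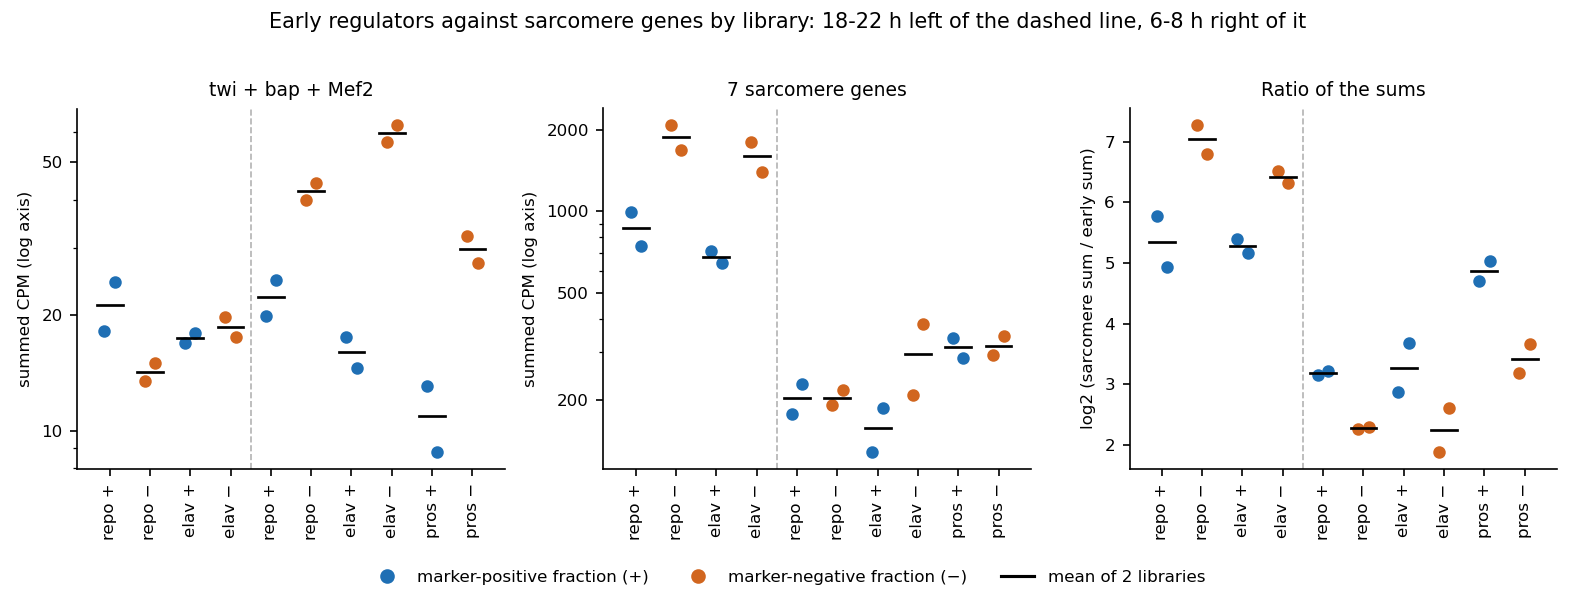
Summed CPM (log axes) of twi, bap and Mef2 and of the 7 sarcomere genes, and the log2 ratio of the sums, in each library, with 18-22 h groups left of the dashed line and 6-8 h groups right of it. The sarcomere sums are 645 to 2089.8 CPM in late and 128 to 382 CPM in early libraries, and the early sums reach 62.7 CPM in elav-negative cells at 6-8 h. Sums are not scaled by exon length.

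Compared per kilobase of annotated exon, Act57B gave the most fragments at 18-22 h, with 93.2 CPM per kb in repo-negative cells, followed by Mlc2 with 34.7, Mhc with 28.1 and bt with 27.5 CPM per kb. Act87E had 17.5, up 14.1 and sls 9.33 CPM per kb in that group. The early regulators were far lower there, with 1.44 CPM per kb for Mef2, 0.272 for bap and 0.233 for twi. At 6-8 h in the same fraction, Act57B (18.8 CPM per kb) and Act87E (15.2) were followed by bap (5.35), Mef2 (3.19) and Mlc2 (3.17), and these stood above twi (2.12), bt (1.72), sls (1.23), Mhc (1.22) and up (0.899).

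The order of the groups was alike for the genes that rose. By mean CPM, the 2 late negative fractions came first and the 2 late positive fractions next for Mhc, Mlc2, Act57B, up, bt and sls, with repo-negative above elav-negative cells for all but up. The ranges of the 2 late negative groups overlapped for Mhc (254 ± 67.6 CPM in repo-negative and 242 ± 58.9 CPM in elav-negative cells) and for Mlc2, Act57B, up and bt, and were separate for sls (550.2 ± 56.7 and 459 ± 49.9 CPM). For Mef2 the first 3 places were held by elav-negative (48.7 ± 5.45 CPM), repo-negative (29.3 ± 2.91) and pros-negative cells (20.9 ± 2.45) of 6-8 h, and the last 2 by elav-positive (11.4 ± 1.3) and pros-positive cells (9.11 ± 0.919) of 6-8 h. The first 2 of these were separate from the group that followed, whereas pros-negative cells overlapped with repo-positive cells of 18-22 h.

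Both fractions of the pros sort held more Mhc, up and Mlc2 than the other fractions of 6-8 h. Mhc lay at 55.5 and 51.8 CPM in pros-positive and 40.4 and 40.7 CPM in pros-negative libraries, against 4.44 to 28.0 CPM in the 8 repo and elav libraries of that stage. Troponin T (up) lay at 11.2 and 8.34 CPM in pros-positive and 12.1 and 11.9 CPM in pros-negative libraries, against 0.773 to 4.68 CPM. Mlc2 lay at 8.84 and 9.44 CPM in pros-positive and 7.95 and 13.3 CPM in pros-negative libraries, against 2.75 to 7.76 CPM. For these genes the pros libraries did not overlap with the others of 6-8 h. The share of all features arranged so was not counted. No test was made between the pros sort and the others, because the pros libraries had another mapping directory. For elav-positive over pros-positive cells the authors' deposited tables list Mlc2 with -2.28, up with -2.21, Mhc with -2.20 and bt with -1.36. For repo-positive over pros-positive cells they list Mlc2 with -1.42. The libraries behind these values are not stated. Act57B, at 28.0 to 43.6 CPM in the pros libraries and 29.3 to 54.2 CPM in the others, and sls, at 80.6 to 107 and 29.1 to 170.1 CPM, showed no such separation.

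Set against their negative fractions at 18-22 h, elav-positive cells held fewer fragments of the sarcomere genes. Mlc2 lay at 24.5 and 27.6 CPM in elav-positive and 80.7 and 73.9 CPM in elav-negative libraries and fell by 1.57 ± 0.40 (adjusted p = 0.00962, edgeR). Act57B lay at 49.2 and 60.8 CPM in elav-positive and 136 and 149 CPM in elav-negative libraries and fell by 1.37 ± 0.30 (adjusted p = 0.00294). The 3 other calls were up (-1.53 ± 0.43), sls (-1.40 ± 0.39) and Mhc (-1.29 ± 0.40), with adjusted p of 0.0168 to 0.0347. Projectin (bt) had -1.08 ± 0.41 (adjusted p = 0.0834; 0.0486 in DESeq2, which called it) and Act87E -0.61 ± 0.31 (0.207).

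For all 7 sarcomere genes both elav-positive libraries lay below both elav-negative ones at 18-22 h, an arrangement that held for 33.8% of all features. The 5 calls stand beside 5.24% of all features called lower, and the median over the 7 genes was -1.37, beside -0.19 over all features. The number of members called was 0 without elav-positive replicate 1, 2 without elav-positive replicate 2, 1 without elav-negative replicate 1 and 2 without elav-negative replicate 2, with the direction of the 7 sarcomere genes the same in each case. Scaled by total counts in place of TMM factors, no member was called (adjusted p 0.0829 to 0.192 for these 5 genes), again with the same directions. None of twi, bap and Mef2 was called in this sort by edgeR or DESeq2, and none had an unadjusted p under 0.05. Bap had the opposite sign in elav-positive libraries, at 2.16 and 2.09 CPM against 0.819 and 0.402 CPM in elav-negative ones (1.79 ± 1.12, adjusted p = 0.323).

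The repo sort at 18-22 h gave values of the same sign for all sarcomere genes but Act87E (0.23 ± 0.30), without a call. Repo-positive libraries held 11.6 and 14.4 CPM of up, against 36.0 and 35.4 CPM in repo-negative ones (-1.46 ± 0.43, adjusted p = 0.0877), and 268 and 182 CPM of sls, against 590.3 and 510.1 CPM in repo-negative ones (-1.29 ± 0.38, adjusted p = 0.0989). For 6 of 7 sarcomere genes, all but Act87E, both repo-positive libraries lay below both repo-negative ones, beside 26.8% of all features. No member was called by edgeR, beside 2.31% of all features, although 6 had an unadjusted p under 0.05, and DESeq2 called 2 (up and sls). The difference between the elav and repo sorts at this stage was itself tested, and its value for the sarcomere genes lay between -0.83 ± 0.43 for Act87E and 0.05 ± 0.57 for bt, with none called by edgeR or DESeq2, beside 6.07% of all features, and none with an unadjusted p under 0.05.

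At 6-8 h, Mef2 gave the clearest difference of the early regulators. It lay at 12.4 and 10.5 CPM in elav-positive and 44.8 and 52.5 CPM in elav-negative libraries, 4.26-fold lower in the positive cells (-2.09 ± 0.33, adjusted p = 0.000285, edgeR). In the pros sort it lay at 9.76 and 8.46 CPM in pros-positive and 22.7 and 19.2 CPM in pros-negative libraries (-1.20 ± 0.32, adjusted p = 0.0528), just short of the threshold. Repo-positive libraries had 16.2 and 15.2 CPM, against 31.3 and 27.2 CPM in repo-negative libraries (-0.90 ± 0.32, adjusted p = 0.143). In all 3 sorts both positive libraries were below both negative ones, as were 24.4% of all features in the elav sort, 24.2% in the pros sort and 24.5% in the repo sort. The larger fall in the elav sort than in the repo sort did not pass the test of that difference (-1.19 ± 0.45, adjusted p = 0.27).

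Fragments of the other early regulators were fewer and varied more. Repo-positive libraries held 1.59 and 2.59 CPM of bap, against 5.97 and 9.55 CPM in repo-negative libraries (-1.89 ± 1.04, adjusted p = 0.381), and pros-positive libraries 0.664 and 0.205 CPM of twi, against 1.67 and 3.84 CPM in pros-negative libraries (-2.73 ± 1.18, adjusted p = 0.23). All 9 values of the 3 early regulators in the 3 early sorts were below 0, but that of twi in the repo sort and that of bap in the elav sort changed sign when a single library was left out.

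At 6-8 h the sarcomere genes with a call were in the elav sort. Elav-positive libraries held 8.15 and 4.93 CPM of Mhc, against 9.50 and 28.0 CPM in elav-negative ones (-1.55 ± 0.43, adjusted p = 0.0249). The values were -1.95 ± 0.52 for up (0.773 and 1.099 CPM in elav-positive, 2.60 and 4.68 CPM in elav-negative libraries, adjusted p = 0.0201) and -1.44 ± 0.39 for sls (adjusted p = 0.022). With Mef2 these made 4 members called lower, beside 3.6% of all features. Without both second libraries, which stand apart, the number called was 0, Mhc had -0.17 (adjusted p = 0.996), up -1.75 (0.472), sls -1.35 (0.161) and Mef2 -1.83 (0.0633). Leaving out a single library, 2 members were called without elav-positive replicate 1, 2 without elav-positive replicate 2 and 1 without elav-negative replicate 2, and Mef2 kept its call in each case. The difference between the elav and repo sorts at 6-8 h passed for no member in edgeR or DESeq2, beside 1.45% of all features, although 3 (Mef2, Act57B and sls) had an unadjusted p under 0.05.

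The repo sort at 6-8 h gave no call among the members in edgeR or DESeq2, beside 3.36% of all features, and 4 had an unadjusted p under 0.05. Among those 4, Mhc had 4.44 and 5.59 CPM in repo-positive libraries, against 8.29 and 13.7 CPM in repo-negative ones (-1.13 ± 0.44, adjusted p = 0.181), and Act87E had 0.69 ± 0.31 (adjusted p = 0.259). In the pros sort edgeR called no member, beside 2.46% of all features, 2 had an unadjusted p under 0.05 (Mef2 and twi), and DESeq2 called 1 (Mef2). Without pros-positive replicate 1 edgeR called 1 member. Sarcomere genes had log2 values between the pros fractions of -0.30 ± 0.42 (up) to 0.41 ± 0.40 (Mhc).

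**Figure D3:**
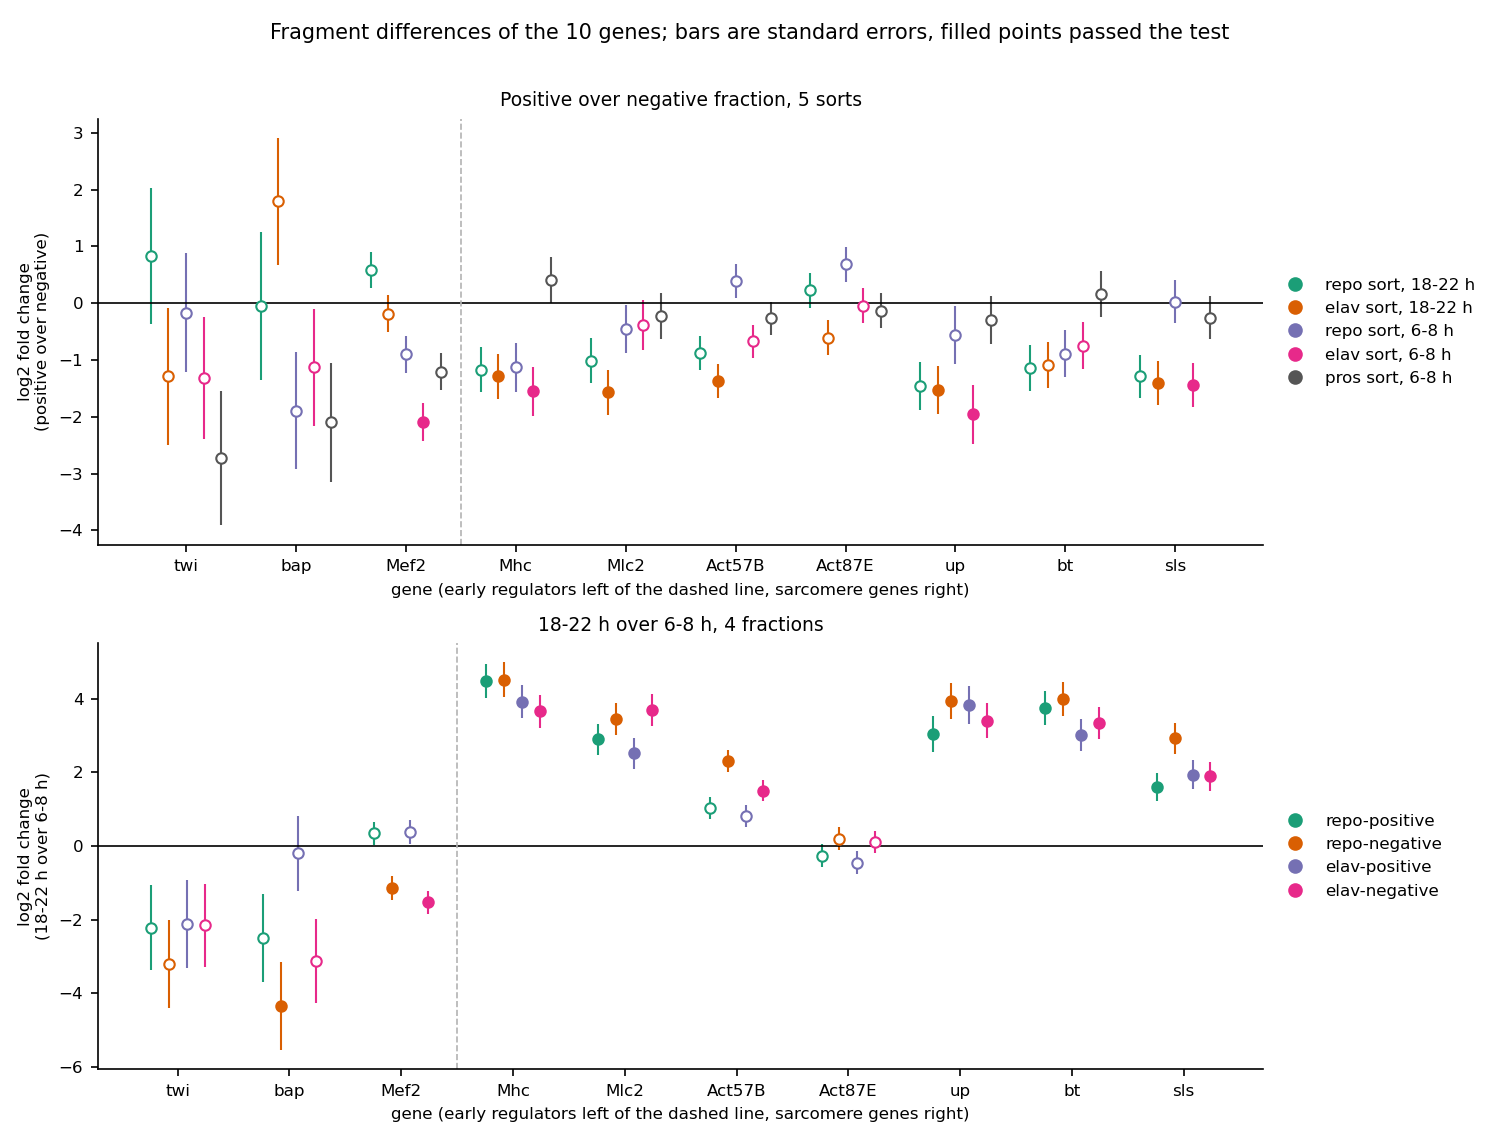
Log2 fold change with its standard error of each gene in the 5 sorts (positive over negative fraction, upper panel) and between the stages in 4 fractions (18-22 h over 6-8 h, lower panel); filled points passed the test. Sarcomere genes other than Act87E lie between 0.81 and 4.52 in the lower panel, and the filled points of the upper panel, from -2.09 to -1.29, belong to the elav sort at the 2 stages.

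The sort difference of Mef2 changed between the stages. In the elav sort it was -0.18 ± 0.32 at 18-22 h, against -2.09 ± 0.33 at 6-8 h, a difference of 1.91 ± 0.46 that passed the test (adjusted p = 0.0404), beside 1.14% of all features. It was the only member called in any of the 4 tests of differences between sorts or stages. The corresponding value in the repo sort was 1.49 ± 0.45 (adjusted p = 0.241), where 0.0853% of all features were called and 3 members had an unadjusted p under 0.05. The call in the elav sort was lost when any single library of its 4 groups was left out (1.76 to 2.10, adjusted p 0.0614 to 0.203) and without both second libraries of 6-8 h (1.72, adjusted p = 0.37). For the sarcomere genes the change of the sort difference between stages lay between -1.18 ± 0.58 (Mlc2) and 0.42 ± 0.65 (up) in the elav sort and between -1.32 ± 0.54 (sls) and -0.04 ± 0.62 (Mhc) in the repo sort.

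Other genes of the muscle programme were counted over lists that had been set with earlier results of these data known. Of 24 further sarcomere and myofibril genes 21 were tested, and 10 of these were called higher at 18-22 h in repo-negative cells, 10 in elav-negative, 5 in repo-positive and 1 in elav-positive cells, with none called lower. Over all features the shares called higher were 7.16%, 6.77%, 1.85% and 1.83%, so that 1 of 21 is near the background. In repo-negative cells the largest values were those of TpnC47D, a troponin C (5.62 ± 1.05), Prm, paramyosin of the thick filament core (4.33 ± 0.59), Mlc1, the alkali light chain (4.00 ± 0.83), and Msp300, a nesprin (3.53 ± 0.52). In elav-negative cells they were Mlc1 (5.41 ± 0.97), Mf, the thick filament protein myofilin (5.23 ± 1.099), TpnC47D (3.57 ± 0.90) and Tm2, a tropomyosin (3.50 ± 0.72). Paramyosin (Prm) was the 1 gene of this list called in all 4 fractions, at 22.7 ± 10.1 CPM late and 1.34 ± 0.467 CPM early in repo-positive cells. TpnC47D had 0 counts in both repo-positive libraries of 6-8 h and 3.13 ± 0.185 CPM in those of 18-22 h.

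In the sorts the list moved less and in mixed directions. At 18-22 h its median was -0.93 in the elav sort with none of 21 called by edgeR (6 with an unadjusted p under 0.05, 3 by DESeq2). Of all features, 5.24% were called lower there and 1035 of 11726 higher. In the repo sort the median was -0.82, with tmod, the thin filament capping protein tropomodulin, called higher in repo-positive cells (1.58 ± 0.41). This 1 call of 21 stood beside 2.31% of all features called in either direction. At 6-8 h the median was 0.53 in the elav sort, with 14 of 21 genes above 0, and 0.33 in the repo sort, with 12 above 0. The 7 sarcomere members had medians of -0.75 and -0.46 in these sorts. Repo-positive cells of 6-8 h held more tmod (2.06 ± 0.42), Msp300 (1.78 ± 0.49) and Tm1, a tropomyosin gene with muscle and non-muscle products (1.43 ± 0.31). These 3 calls of 21 stood beside 3.36% of all features called in either direction. Msp300 was also higher in elav-positive cells of 6-8 h (2.13 ± 0.50), the 1 call of 21 there, where 631 of 11726 features were called higher. In the pros sort none of the 21 was called by edgeR, beside 2.46% of all features, 2 had an unadjusted p under 0.05 and DESeq2 called 1. Among 4 genes of calcium handling, RyR, the ryanodine receptor, was lower in positive cells of both late sorts (-1.30 ± 0.41 for elav, -1.67 ± 0.42 for repo) and Ca-alpha1D, a voltage-gated calcium channel subunit, was higher in elav-positive cells at 18-22 h (2.87 ± 0.42) and 6-8 h (2.51 ± 0.42). In the elav sort at 6-8 h 1 of the 4 was called lower as well, beside 3.6% of all features called lower.

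Of 11 further mesoderm and myogenic regulators, 4 were called lower at 18-22 h than at 6-8 h in repo-negative cells and 2 in elav-negative cells, and none higher, beside 4.27% and 5.43% of all features called lower. In repo-negative cells they were tin, the heart and dorsal mesoderm factor tinman (-4.90 ± 1.46), Six4, a homeodomain factor (-4.85 ± 1.15), bin, the visceral mesoderm factor biniou (-4.36 ± 1.37), and org-1, a T-box factor (-3.25 ± 0.95). In elav-negative cells they were lmd, a factor of fusion-competent myoblasts (-5.04 ± 1.03), and stumps, an adaptor of fibroblast growth factor receptors (-1.38 ± 0.41). None of the 11 was called in repo-positive or elav-positive cells by edgeR, where 3 and 1 had an unadjusted p under 0.05 and DESeq2 called 1 and 0.

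These regulators did not all behave alike in the sorts. In the elav sort at 6-8 h lmd (-3.91 ± 0.95), htl, a fibroblast growth factor receptor (-2.94 ± 0.49), stumps (-1.79 ± 0.42) and how, an RNA-binding protein of the muscle lineage (-1.66 ± 0.33), were lower in elav-positive cells, and zfh1, a zinc finger and homeodomain factor, was higher (1.61 ± 0.37). It was also higher in repo-positive cells of that stage (2.13 ± 0.38). In repo-positive cells htl was higher at both stages, at 43.7 ± 6.14 CPM, with 5.98 ± 2.65 CPM in repo-negative cells, at 18-22 h (2.86 ± 0.46) and at 69.1 ± 6.38 against 12.97 ± 4.00 CPM at 6-8 h (2.42 ± 0.45). Its sort difference at 6-8 h was lower for elav than for repo by a tested 5.36 ± 0.67 on the log2 scale (adjusted p = 0.00038, edgeR). The htl gene is used by embryonic glia as well as by mesoderm. Of 8 genes of myoblast adhesion and fusion, 4 were called lower in elav-positive cells at 6-8 h and none higher, beside 3.6% of all features called lower. All 8 were below 0 (median -1.54, beside 0.0 over all features). In the repo sort 2 were called higher and 1 lower at 18-22 h, and 1 higher and 1 lower at 6-8 h, beside 2.31% and 3.36% of all features called in either direction. There sns, an adhesion protein of fusion-competent myoblasts, was lower in repo-positive cells at both stages (-1.80 ± 0.39 late, -1.73 ± 0.38 early), whereas blow, an adaptor needed for fusion, was higher in them (2.69 ± 0.53 and 2.78 ± 0.56).

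Markers of cell types other than muscle differed in direction between the stages. Over all features, 7.16% were called higher at 18-22 h in repo-negative, 6.77% in elav-negative, 1.85% in repo-positive and 1.83% in elav-positive cells. Neuron markers were called higher at 18-22 h in repo-negative (7 of 8, median 3.68), elav-negative (5 of 8, 1.61), repo-positive (3 of 8, 1.76) and elav-positive cells (2 of 8, 1.40). Their sum was 313 to 366 CPM in late and 194 to 216 CPM in early repo-positive libraries, 409.6 to 432 and 103 to 113 CPM in repo-negative, 1589 to 1825 and 1094 to 1168 CPM in elav-positive, and 63.4 to 104 and 63.8 to 67.5 CPM in elav-negative libraries. The active zone gene brp was called higher in all 4 fractions. In the positive fractions of the repo and elav sorts the 6 hemocyte markers summed to 16.0 to 27.4 CPM at 18-22 h and 11.4 to 18.5 CPM at 6-8 h. The 5 fat body and gut markers summed there to 205 to 295 CPM and 37.5 to 83.8 CPM. The hemocyte markers summed to 145 to 308 CPM in the late negative fractions, against 35.8 to 87.4 CPM in the early negative fractions of the repo and elav sorts. The fat body and gut markers summed to 866 to 1039 CPM in late and 113 to 232 CPM in early negative fractions of those sorts. In late negative fractions the most abundant of them were apolpp, a lipoprotein of the fat body, and Pxn, peroxidasin of hemocytes, and both genes were called higher at 18-22 h in all 4 fractions. No marker of these lists was at 0 in every library of a group. The 5 epidermis and trachea markers summed to 83.1 to 116 CPM in late and 167 to 299.9 CPM in early negative fractions of the repo and elav sorts, lower rather than higher at 18-22 h. Neuroblast markers had stage medians of -1.33 in repo-negative, -1.61 in elav-negative, -2.235 in repo-positive and -1.20 in elav-positive cells. Those of glia markers were 0.27, -0.09, 0.03 and -0.02 in the same order. The part of these cell types in the values of the muscle genes was not tested.

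Among protein-coding genes outside the list, those most like Mhc over the 10 group means in log2(CPM + 1) were Prm (r = 0.99), CG4115 (0.98), CG10211 (0.98), CG34417 (0.98) and Strn-Mlck (0.97), from 6769 genes averaging at least 2 CPM. Those most like twi were bin (0.94), IKKbeta (0.92), Epg5 (0.91), Tsr1 (0.91) and Start1 (0.91). For bap they were MYPT-75D (0.95), Doc3 (0.94), Rrp6 (0.93), Fam92 (0.93) and aurA (0.93). Among the members, the correlation over the same means lay between -0.19 and 0.98 for all 21 pairs of sarcomere genes. It lay between 0.81 and 0.98 for the 15 of these pairs without Act87E. The 3 pairs of early regulators had values between 0.59 and 0.76. All 21 pairs of an early regulator with a sarcomere gene lay between -0.76 and 0.36, and the 18 without Act87E between -0.76 and -0.02. These correlations describe 10 points that share stage, sort and library depth.

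The muscle microRNA gene mir-1, counted in the same libraries, was set beside these fragments without a test. In CPM of the miRNA counts, mir-1 stood at 23440 and 20049 in repo-positive and 57156 and 110880 in repo-negative libraries at 18-22 h, and 25576 and 34827 in elav-positive and 76883 and 114280 in elav-negative libraries. At 6-8 h it stood at 16129 and 3327 in repo-positive and 104040 and 79162 in repo-negative libraries, 14923 and 15294 in elav-positive and 129840 and 30272 in elav-negative libraries, and 93750 and 133030 in pros-positive and 180740 and 191780 in pros-negative libraries. In each of the 5 sorts both positive libraries were below both negative ones, and the share of miRNAs arranged so was not counted. The second elav-positive and elav-negative libraries of 6-8 h, which stand apart, held only 1073 and 6053 counts of mir-1. Unlike Mhc, Mlc2 and bt, mir-1 was not separated by stage, with 20049 to 114280 in late and 3327 to 191780 in early libraries.

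The authors' deposited tables pair genes with miRNAs whose changes have the opposite sign and give a log2 fold change for each gene. The libraries behind the gene values are not stated in the sources used here, the direction was read as second over first group from the signs of repo, elav and pros, and a gene appears only if it was selected for such a pair. Of the 10 genes, 7 (all but bap, Act57B and Act87E) occur in the authors' deposited tables for a comparison analysed here, with 29 values in all. All 22 values for sorts in the authors' deposited tables were negative and all 7 for stages positive, and each had the sign of the fragment value, of which 8 and 7 passed the test here.

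In the repo sort at 6-8 h the authors' deposited tables list Mef2 with -2.47 and twi with -2.26, where the fragments gave -0.90 ± 0.32 and -0.16 ± 1.05. In the elav sort at 6-8 h the authors' deposited tables list Mef2 with -2.48 and Mlc2 with -2.23, beside fragment values of -2.09 ± 0.33 and -0.38 ± 0.43. For the late over early elav-positive cells the authors' deposited tables list Mhc with 3.79, bt with 2.84 and Mlc2 with 3.89, beside fragment values of 3.92 ± 0.45, 3.01 ± 0.44 and 2.51 ± 0.42. For repo-positive cells the authors' deposited tables list bt with 4.28 and sls with 1.51, beside 3.76 ± 0.45 and 1.61 ± 0.39.

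**Figure D4:**
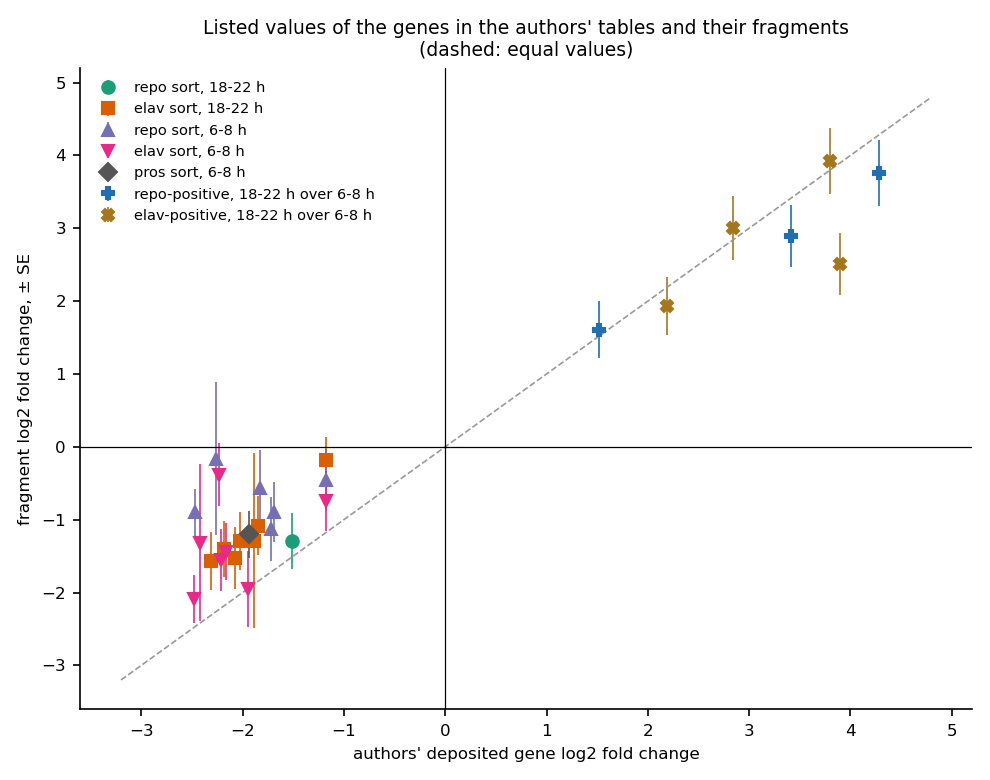
Gene log2 fold change as listed in the authors' deposited tables (x axis) and fragment log2 fold change with its standard error (y axis) for each listed gene and comparison; the dashed line marks equal values. All 29 points have the same sign on both axes, and the point farthest from the line is twi in the repo sort at 6-8 h, with -2.26 listed and -0.16 ± 1.05 for fragments.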

How the data were processed

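Single reads of 51 bp from 20 strand-specific small RNA libraries had been counted by the authors before deposit. Per the file headers, the deposited values are estimated counts per gene from featureCounts, in which multi-mapping reads were split into fractions and reads over overlapping features were counted for each, on exons of the Ensembl BDGP6 annotation. The submitters' processing notes name Bowtie 1.1.2, SAMtools 1.8, featureCounts 1.5.1 and DESeq2. Of the values, 78.1% were not whole, and they were rounded to whole numbers before each fit. The 237 miRNA hairpin genes and 59 features sharing an exon with one were removed from 17559 features, so that CPM and tests refer to the remaining 17263. The authors' deposited tables of gene and miRNA pairs hold log2 fold changes and adjusted p-values as the authors computed them.

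Main values came from edgeR 4.0.16 in R 4.3.3, with TMM factors, its filter on low counts, a quasi-likelihood fit to the 10 groups of 20 libraries (common biological coefficient of variation 0.511, 10 residual degrees of freedom) and Benjamini-Hochberg adjustment over 11726 features. The p-values measure the spread between duplicates, which the labels call biological without naming separate collections. The total count was 6863042 to 24501421 per library, and log2 CPM of the duplicates had correlations of 0.797 to 0.909 across features. Alternatives were RLE factors, total counts, protein-coding genes only, no filter, DESeq2 1.42.0, a replicate block, leaving out libraries and fitting only the groups compared. Tables and figures were made in Python 3.11.15. The test was also tested on simulated data.

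The 10 members and all other gene lists were chosen with earlier results of these data known. Other genes of a list are named if they passed the test, their groups did not overlap and the higher group averaged at least 2 CPM, up to 4 per list and comparison by fold change. Marker genes and genes named for values beside a result (Act5C, apolpp, brp, Pxn, TpnC47D and zfh1) are further exceptions chosen for the comparison they stand beside. For Mhc, twi and bap the 5 most correlated protein-coding genes are named.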

Additional observations from a re-analysis of the deposited data

Results flagged for a closer look

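The difference of Mef2 between elav-positive and elav-negative cells changed between the stages by 1.91 ± 0.46 on the log2 scale (edgeR, adjusted p = 0.0404), which a test of the difference itself passed. The sort difference was -0.18 ± 0.32 at 18-22 h and -2.09 ± 0.33 at 6-8 h. Mef2 lay at 14.8 ± 0.51 CPM in elav-positive and 16.8 ± 2.6 CPM in elav-negative cells at 18-22 h, and at 11.4 ± 1.3 CPM in elav-positive and 48.7 ± 5.45 CPM in elav-negative cells at 6-8 h (SD, 2 libraries each). Over the settings tried the value stayed between 1.60 and 2.10, with an adjusted p of up to 0.37, without both second libraries of the elav sort at 6-8 h.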

How the results depend on the processing

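For each member and comparison the direction and the side of the threshold were the same in 961 of 1092 recomputed values, 71 lost a call, 23 gained one and 37 changed sign. Scaling by total counts moved the median log2 fold change of all features by -0.51 to 0.68 and each of the other scalings by at most 0.12. The number of members called between stages (8, 7, 5 and 5 in repo-negative, elav-negative, repo-positive and elav-positive cells) stayed within 1.5 times under each alternative. In the elav sort at 6-8 h it was 4, against 1 with total counts, 1 with the spread of its own libraries, 0 without both second libraries and 1 to 4 leaving out 1 library. In the elav sort at 18-22 h it was 5, against 0 with total counts and 0 to 2 leaving out 1 library. In the pros sort it was 0, against 1 with RLE factors, 1 with protein-coding genes only, 1 with DESeq2 and 0 to 1 leaving out 1 library. In the repo sort at 18-22 h it was 0, against 1 with protein-coding genes only, 2 with DESeq2, 2 with its own libraries and 1 without both second libraries of the elav sort at 6-8 h. The stage change of the elav sort difference, with 1 member called (Mef2), gave 0 with total counts, without the filter, with its own libraries, without both second libraries and in each of the 8 fits leaving out 1 library (0 to 0). Apart from these constructions, the cause was not tested.

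The same-numbered libraries of the 2 fractions deviated together with correlations of 0.01 to 0.153, so the numbers were not taken as pairs. With the replicate number as a block, 2 members were called in the repo sort at 18-22 h (sls and bt), bt was also called in the elav sort at 18-22 h (-1.06, adjusted p = 0.0196) and Act57B in repo-positive cells between stages (1.06, 0.0478), and 0 were called in the stage change of the elav sort difference (Mef2, 1.92, adjusted p = 0.0552), while bap in elav-positive cells between stages turned to 0.0716.

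Under total counts the elav sort at 6-8 h gave 0.31 for Mlc2, 0.0424 for Act57B, 0.66 for Act87E and 0.0385 for bt. Act87E there also turned to 0.0235 with RLE factors, 0.0201 with protein-coding genes only, 0.0236 with DESeq2, 0.0251 with its own libraries and 0.15 without the filter, and Mlc2 to 0.0502 without both second libraries. Total counts also turned bt in the pros sort to -0.0066, bap in the repo sort at 18-22 h to 0.0657 and Mef2 in the elav sort at 18-22 h to 0.17. Between stages they turned Act87E to -0.15 in repo-negative and -0.0828 in elav-negative cells and Mef2 to -0.12 in elav-positive cells. Leaving out 1 library, signs changed within these ranges: in the repo sort at 6-8 h, twi -1.21 to 0.77, Mlc2 -1.41 to 0.0893, up -0.98 to 0.0307 and sls -0.27 to 0.26. In the elav sort at 6-8 h they were bap -2.52 to 0.37, Mlc2 -0.70 to 0.0641 and Act87E -0.14 to 0.0278. In the pros sort they were Mlc2 -0.52 to 0.23, Act87E -0.39 to 0.24 and bt -0.24 to 0.44. At 18-22 h they were twi -0.94 to 2.16 and bap -0.60 to 0.77 in the repo sort and twi -2.26 to 0.61 in the elav sort. Between stages they were Act87E -0.49 to 0.015 in repo-positive and bap -0.87 to 1.21 in elav-positive cells. None of these members had a call in that comparison. The low counts of twi and bap limit what these libraries can show of them.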
